A study of Mus musculus with 4 samples.

Results

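The 9 genes described here lie on mouse chromosome 1 within 20 Mb of Ikzf2, the gene that carries the cello mutation. They are Hecw2, Map2, Unc80, Kansl1l, Lancl1, Smarcal1, Ap1s3, Wdfy1 and Dock10, 9 of 37239 genes in the files and of 14721 that were tested. They were selected on their CPM, the reads of a gene scaled to the size of its library, which differed consistently between genotypes, so their differences are given as a description, with no test. Dissected whole cochleae of mice homozygous for cello (Ikzf2cello/cello) were compared with those of wild-type (Ikzf2+/+) littermates at postnatal day 8, with 2 RNA-seq libraries per genotype. The cello mice carry the mutant allele in every cell, and the labels give no other allele or agent in either group. Strain, sex and the number of animals per library are not stated in the labels, and nothing there says that equal replicate numbers share a litter. Any p-value therefore sets a difference between genotypes against the spread of libraries within a genotype, which need not be the spread between animals. With 2 libraries a side the smallest p an exact permutation could reach is 0.333.

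Helios, the protein of Ikzf2, is a zinc finger transcription factor that outer hair cells need to mature, and cello is known as a point mutation that alters the protein. Genes close to each other on a chromosome are inherited together. When a mutation is kept by breeding, a stretch of chromosome around it travels with it, and homozygous mutants can then differ from wild-type littermates in neighbouring genes as well as in the mutated one. Whether the strains behind these mice differ in sequence near Ikzf2 is not recorded in the labels and was not tested.

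The libraries held 42450937 and 47463910 counted alignments in cello and 49719984 and 42152616 in wild-type, of which 70.0% to 72.8% lay in genes. Each of the 9 genes had between 352 and 6969 reads in a library. All of the defining markers listed for spiral ganglion neurons, Schwann cells, hair cells, epithelium, bone, marrow, macrophages and red cells were above 0 in every library. In such bulk tissue, fewer cells of a type and less RNA per cell cannot be told apart. Limma called 0 of the 14721 genes (0%) at an adjusted p of 0.05, with 1603 (10.9%) at an unadjusted p under 0.05. EdgeR called 0 (0%) and DESeq2 called 195 (1.32%).

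Ikzf2 itself (chromosome 1, 69531214 to 69687245 of GRCm38) had 17.7 and 16.9 CPM in cello, against 22.9 and 18.5 CPM in wild-type. Its groups were separated by 0.06 on the log2 scale, less than the 0.30 between the wild-type libraries. Its transcript level does not check the genotype, since a point mutation need not change it.

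Of the 9 genes, all protein coding, 6 were higher and 3 lower in cello. The 5 that lie at lower coordinates than Ikzf2, towards the centromere, were all higher. Of the 4 on the other side, 3 were lower. Neither cello library overlapped with either wild-type library for any of them, which the choice of genes required. Over all genes tested, 45.6% had groups that did not overlap, 16.9% with cello higher and 28.7% with cello lower. In 8 of the 9 genes the gap between the groups was wider than the larger of the 2 ranges within a genotype, and Map2 was the exception.

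**Figure D1:**
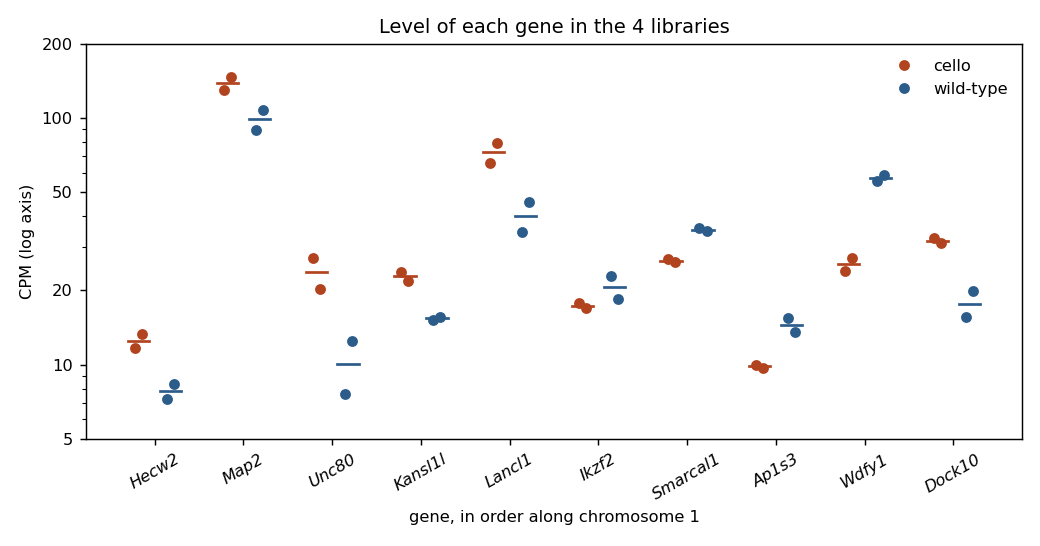
CPM of the 9 genes and of Ikzf2 on a log axis, in order along chromosome 1, with cello points left of wild-type points and a bar at each mean of 2 libraries. Wdfy1, with 24.0 and 27.2 CPM in cello against 55.6 and 59.1 CPM in wild-type, has the widest gap of the 9 genes.

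Wdfy1 encodes a protein with WD repeats and a FYVE domain, which binds the phosphoinositide of early endosomes. In mouse it is known to bring the adaptor TRIF to Toll-like receptors 3 and 4. The gene (ENSMUSG00000073643, chromosome 1, 79702262 to 79776143, minus strand) lies 10.02 Mb from Ikzf2. It had 24.0 and 27.2 CPM in cello, against 55.6 and 59.1 CPM in wild-type. Its log2 fold change on the log2(CPM + 0.5) scale was -1.15 (SE 0.10, n = 2 each), and wild-type held 2.24 times the CPM of cello. Within a genotype its libraries lay 0.18 apart in cello and 0.09 apart in wild-type on the log2 scale, against a gap of 1.02 between the groups.

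Ap1s3 is the direct neighbour of Wdfy1, 30289 bases away on the same strand (79606876 to 79671972). It encodes a sigma subunit of AP-1, the clathrin adaptor that sorts cargo at the trans-Golgi network and endosomes. Its 10.01 and 9.67 CPM in cello were below its 15.4 and 13.6 CPM in wild-type, a log2 fold change of -0.54 (SE 0.12). The next tested genes on either side did not follow these neighbours. Scg2, before Ap1s3, had 186.6 and 104.6 CPM in cello, which spanned its 157.6 and 151.6 CPM in wild-type. Mrpl44, after Wdfy1, had 14.98 and 17.3 CPM in cello and 14.9 and 16.6 CPM in wild-type. Mrpl44 runs on the opposite strand and shares 126 exonic bases with Wdfy1 (1.94% of the exonic length of Wdfy1).

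Serpine2, the protease inhibitor gene that comes after these, differed in the opposite direction. It had 370.0 and 298.8 CPM in cello, against 225.1 and 242.2 CPM in wild-type. Higher as well was Dock10 (80501073 to 80758527, minus strand, 10.8 Mb from Ikzf2), which encodes an exchange factor that loads Cdc42 and Rac with GTP. Its 32.6 and 31.1 CPM in cello stood well clear of 15.5 and 19.8 CPM in wild-type, with a log2 fold change of 0.84 (SE 0.14). Between Serpine2 and Dock10 lies Cul3, a ubiquitin ligase scaffold gene, whose 108.0 and 117.1 CPM in cello overlapped with 103.7 and 108.8 CPM in wild-type. Genes with opposite differences and genes with none thus stood side by side about 10 Mb from Ikzf2.

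Smarcal1 (72583251 to 72633134, plus strand, 2.90 Mb from Ikzf2) was the nearest of the 9 genes on the side of higher coordinates. Its protein is an annealing helicase that binds the single-strand binding protein RPA and helps stalled replication forks restart. It had 26.9 and 26.0 CPM in cello, against 35.7 and 34.7 CPM in wild-type. The log2 fold change of -0.41 (SE 0.08) was the smallest in size among the 9, but the libraries of a genotype differed by at most 0.05 on that scale. Its tested neighbours Xrcc5 (23.6 and 31.4 CPM in cello, 27.1 and 26.2 CPM in wild-type) and Rpl37a overlapped between genotypes.

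Map2, Unc80, Kansl1l and Lancl1 lie within 0.864 Mb of each other, and all were higher in cello. Map2 (66175273 to 66442583, plus strand) encodes the microtubule-associated protein of dendrites. It was the most abundant of the 9 in reads, with 130.5 and 146.8 CPM in cello, against 89.6 and 108.4 CPM in wild-type (log2 fold change 0.49, SE 0.12). Its gap of 0.27 between the groups on the log2 scale was no wider than its range within wild-type. Unc80 (66468367 to 66699148, plus strand) encodes the subunit that links the sodium leak channel NALCN to UNC79. It had 27.0 and 20.4 CPM in cello, against 7.62 and 12.4 CPM in wild-type, the widest difference among the higher genes (log2 fold change 1.22, SE 0.26). Its wild-type libraries were also the farthest apart of the 9 genes, by 0.67 on the log2 scale.

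Kansl1l (66719248 to 66817562, minus strand) encodes a relative of KANSL1, the scaffold of the NSL histone acetyltransferase complex. It had 23.7 and 21.9 CPM in cello, against 15.2 and 15.6 CPM in wild-type, with a log2 fold change of 0.55 (SE 0.10). Lancl1 (67000517 to 67038872, minus strand) encodes a LanC-like protein that binds glutathione and is known in mouse to protect neurons from oxidative stress. Its levels were 65.8 and 79.6 CPM in cello, against 34.6 and 45.5 CPM in wild-type, with a log2 fold change of 0.86 (SE 0.16). Hecw2 (53806876 to 54195168, minus strand) is the gene farthest from Ikzf2, at 15.3 Mb, and encodes a ubiquitin ligase of the NEDD4 family. It had 11.7 and 13.3 CPM in cello, against 7.24 and 8.35 CPM in wild-type, with a log2 fold change of 0.65 (SE 0.14). Its neighbour Gtf3c3 overlapped, with 30.7 and 31.3 CPM in cello and 29.9 and 31.0 CPM in wild-type.

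Per kilobase of annotated exon, Lancl1 stood at the top in cello with a mean level of 10.6 ± 1.41 CPM (SD, n = 2), followed by Map2 at 8.43 ± 0.702 CPM. These means differed by more than their SDs, and the libraries did not overlap. Smarcal1 (4.62 ± 0.106), Wdfy1 (3.94 ± 0.349), Kansl1l (3.42 ± 0.194) and Ap1s3 (3.42 ± 0.0838 CPM per kilobase) followed in cello. Of these, Kansl1l and Ap1s3 could not be ordered. Dock10 (1.74 ± 0.0565), Unc80 (1.64 ± 0.327) and Hecw2 (0.967 ± 0.0890 CPM per kilobase) were lowest in cello, the first of them within the spread of Unc80. In wild-type the order began with Wdfy1 at 8.84 ± 0.379 CPM per kilobase. Smarcal1 (6.15 ± 0.125), Map2 (6.02 ± 0.810), Lancl1 (5.84 ± 1.12) and Ap1s3 (5.05 ± 0.445 CPM per kilobase) formed the next wild-type group, in which neighbours lay within each other's spread. Kansl1l (2.32 ± 0.0387), Dock10 (0.968 ± 0.166), Unc80 (0.695 ± 0.236) and Hecw2 (0.602 ± 0.0606 CPM per kilobase) were lowest in wild-type, with Unc80 and Hecw2 within the spread of Unc80. Wdfy1 was thus the first of the 9 in wild-type and the fourth in cello.

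The stretch from Map2 to Lancl1 was followed gene by gene. Rpe, a sugar phosphate isomerase gene between Unc80 and Kansl1l, had 41.3 and 43.5 CPM in cello and 41.1 and 40.0 CPM in wild-type, a log2 fold change of 0.06. It runs against Kansl1l and shares 558 exonic bases with it, 8.37% of the exonic length of Kansl1l. Acadl, the acyl-CoA dehydrogenase gene on the other side, had 65.4 and 83.8 CPM in cello, against 55.0 and 60.9 CPM in wild-type. Myl1, a myosin light chain gene of fast skeletal muscle, went the other way, with 0.212 and 0.147 CPM in cello, against 1.43 and 3.46 CPM in wild-type. Erbb4, the receptor gene nearest to Ikzf2 on this side, had 6.29 and 12.5 CPM in cello, against 14.8 and 16.4 CPM in wild-type. Farther out, Pikfyve, the tested gene before Map2, had 44.2 and 46.3 CPM in cello, against 41.9 and 41.0 CPM in wild-type. From Pikfyve to Erbb4, differences of either sign and a gene with hardly any difference were therefore interleaved. Between Map2 and Lancl1 the only tested gene lower in cello was Myl1, which reached 1 CPM in wild-type alone.

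Several provisional loci of unknown product lie inside Kansl1l, and some differed more than Kansl1l did. At 6820402A03Rik (66793645 to 66796298, the strand of Kansl1l) 12 and 25 reads were counted in cello and 0 and 0 reads in wild-type. A count of 0 allows up to 3 reads, which over the wild-type group makes cello at least 12.6-fold higher. At Gm37285 (66799659 to 66800797, the same strand) 30 and 30 reads in cello stood against 2 and 2 reads in wild-type, a ratio of 15.3 after scaling to all alignments. Kansl1l as a whole had a ratio of 1.48. Gm38387 (66769290 to 66771866, same strand) had 46 and 65 reads in cello, against 23 and 21 in wild-type. By contrast Gm37755 (66812315 to 66814493, opposite strand) had 29 and 29 reads in cello and 33 and 21 in wild-type, which overlapped. At Gm37181, a locus within Unc80 on the opposite strand, 0.448 and 0.569 CPM in cello stood against 0.101 and 0.0474 CPM in wild-type. Only Gm38387 of these 5 loci was abundant enough to be tested. The strand setting of the read counting is not given in the sources used here, so reads from a gene and from an overlapping locus on the other strand cannot be told apart. On the strand of Kansl1l, 6820402A03Rik and Gm38387 share 0 exonic bases with it and Gm37285 shares 56. Under any strand setting, reads at these loci cannot be told apart from unspliced RNA of Kansl1l. All 5 loci were singled out after their values were seen.

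The reference sequences upstream of the 9 genes were examined as a description. They come from RefSeq (GRCm38.p6), which matched 8 of the 9 genes, and cover the 250 bases before the annotated start. Proteins of the Ikaros family bind DNA at sites with a GGGAA core. The letters TGGGAA, which are stricter than the core alone, were therefore searched on both strands, and capitals mark a match. The core alone was not counted. It stands unmarked in the windows of Map2, Lancl1 and Dock10 and, on the other strand, of Unc80 and Kansl1l. Shown are Kansl1l and Lancl1, higher in cello, and Smarcal1 and Ap1s3, lower in cello.
Kansl1l (chr1:66817596-66817845, minus strand): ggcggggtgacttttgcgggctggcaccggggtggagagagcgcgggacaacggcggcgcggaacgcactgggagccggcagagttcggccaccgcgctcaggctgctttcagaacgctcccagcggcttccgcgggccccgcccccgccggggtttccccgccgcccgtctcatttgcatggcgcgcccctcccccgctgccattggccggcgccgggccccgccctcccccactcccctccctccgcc
Lancl1 (chr1:67038835-67039084, minus strand): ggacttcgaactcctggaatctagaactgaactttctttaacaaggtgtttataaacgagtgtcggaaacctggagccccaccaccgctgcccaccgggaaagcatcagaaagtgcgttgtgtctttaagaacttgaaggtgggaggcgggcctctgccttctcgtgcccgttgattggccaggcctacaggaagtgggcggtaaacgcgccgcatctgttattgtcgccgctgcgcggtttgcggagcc
Smarcal1 (chr1:72583001-72583250, plus strand): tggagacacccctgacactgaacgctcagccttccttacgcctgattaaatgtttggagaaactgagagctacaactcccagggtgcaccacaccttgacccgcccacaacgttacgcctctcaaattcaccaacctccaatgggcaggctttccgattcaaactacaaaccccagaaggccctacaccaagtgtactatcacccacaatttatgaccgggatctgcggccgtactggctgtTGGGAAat
Ap1s3 (chr1:79671973-79672222, minus strand): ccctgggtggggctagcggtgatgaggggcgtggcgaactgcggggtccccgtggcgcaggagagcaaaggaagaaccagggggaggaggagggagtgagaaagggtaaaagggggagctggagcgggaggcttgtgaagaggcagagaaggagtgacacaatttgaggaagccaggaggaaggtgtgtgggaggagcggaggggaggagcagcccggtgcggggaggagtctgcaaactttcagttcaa
The full TGGGAA was found in 1 of the 8 windows, that of Smarcal1, beside 21.6% of all 32851 windows of this length. A match is no evidence of binding, and the absence of one says only that these letters are not in this window. In base composition the 8 windows ranged from 51.2% (Unc80) to 81.2% (Map2) G and C, against a median of 52.4% over all windows. They held between 6 and 34 CpG dinucleotides, against a median of 6.

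The genes around Ikzf2 as a whole gave a background for the 9. Within 20 Mb there were 220 tested genes, and the groups did not overlap in 109 of them (49.5%), 60 higher and 49 lower in cello. The rest of chromosome 1 gave 45.0% of 666 genes and all genes tested 45.6%. Without the 9 and Ikzf2, 47.1% of 210 genes in the window had groups that did not overlap, with a median absolute log2 fold change of 0.14, against 0.13 over all genes tested. Without the 9 and Ikzf2, the share at an unadjusted limma p under 0.05 was 14.8% in the window, below the 16.1% on the rest of chromosome 1, against 10.9% over all genes. With the 9, which were selected for differing, the window stood at 18.2%. On the 19 other chromosomes the share ranged from 7.86% to 12.8%.

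**Figure D2:**
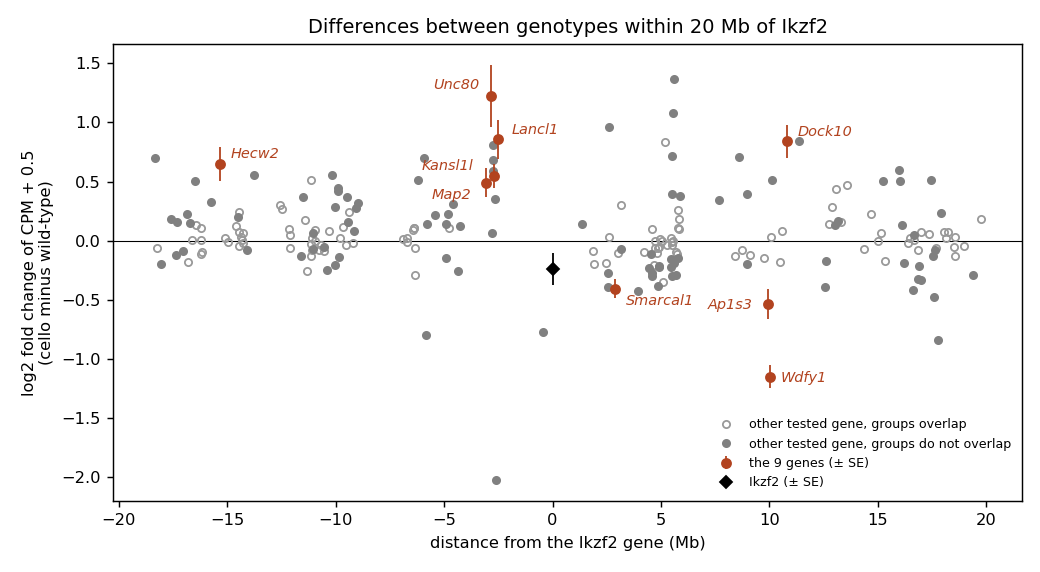
Log2 fold change (cello minus wild-type, on the log2(CPM + 0.5) scale) of every tested gene within 20 Mb of Ikzf2 against distance in Mb, with the SE of the 9 genes and of Ikzf2. Unc80, Lancl1, Kansl1l and Map2 stand together above 0 between 2.49 and 3.09 Mb before Ikzf2, and Wdfy1 stands lowest among the 9 at -1.15.

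By distance, one stretch of the window stood apart from the others in these shares. In the 5 Mb before Ikzf2, 17 of 18 tested genes (94.4%) had groups that did not overlap, 13 higher and 4 lower in cello. This stretch holds 4 of the 9 genes. Without them, 13 of 14 genes (92.9%) still had groups that did not overlap, with a median absolute log2 fold change of 0.28. Of those 14, 3 are provisional loci inside Kansl1l and do not count independently of it. Gm38387 and Gm38162 among these loci reached 1 CPM only in cello, and Myl1 only in wild-type. Genes that passed the filter in this way could not overlap. Where a mean of at least 5 CPM was required instead, the stretch held 14 tested genes, with 4 of the 9 included, and 13 did not overlap. Under the main filter and without the 4, there were 11 protein-coding genes. Of these 10 did not overlap, Myl1 included, 6 higher and 4 lower in cello, with a median absolute log2 fold change of 0.22. Their differences were mostly small, such as 71.1 and 69.9 CPM in cello against 64.5 and 63.4 CPM in wild-type for the transcription factor gene Creb1. The metabolic enzyme gene Idh1 had 75.7 and 89.3 CPM in cello, against 100.2 and 97.0 CPM in wild-type. The other bins of 5 Mb held between 30.8% and 55.0%. In the 5 Mb after Ikzf2 14 of 29 genes (48.3%) did not overlap, and 12 of these were lower in cello. The bins were drawn after the values were known, and their differences were not tested.

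**Figure D3:**
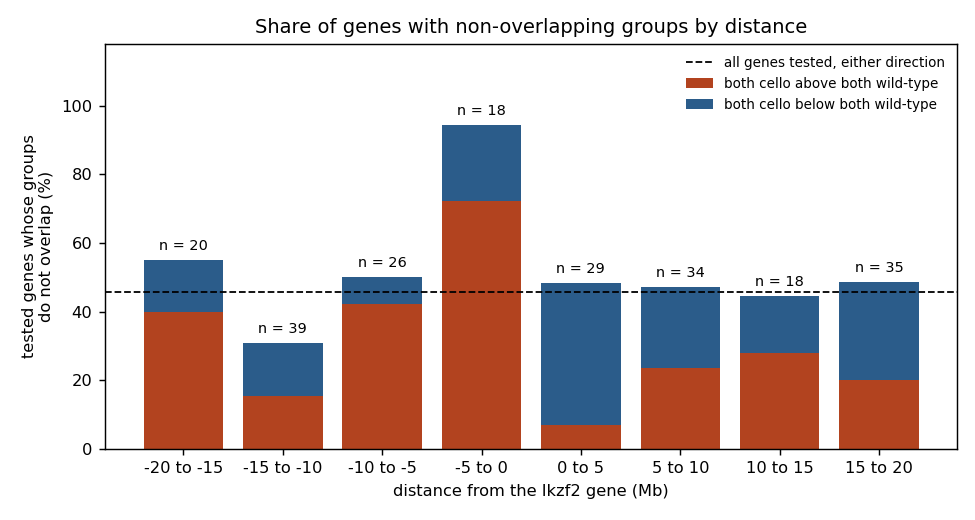
Percentage of tested genes whose 2 cello and 2 wild-type values do not overlap, in bins of 5 Mb by distance from Ikzf2, split into genes with cello above and cello below wild-type, with the number of genes over each bar. The dashed line marks the 45.6% of all genes tested, and the bin from -5 to 0 Mb reaches 94.4% of 18 genes.

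The tested protein-coding neighbours of the 9 genes and of Ikzf2 included 14 other genes. In 8 of these the groups did not overlap, 6 higher and 2 lower in cello. The share over all genes tested was 45.6%, and the neighbours were not tested against it. Of the 8, Pikfyve, Rpe, Acadl, Myl1 and Erbb4 lie in the stretch just before Ikzf2 and were already counted there. Myl1 reached the filter only in wild-type, so its groups could not overlap. The rest of the 8 were Bard1, Stk17b and Nyap2. Bard1, the gene after Ikzf2, had 1.84 and 1.66 CPM in cello, against 1.55 and 1.54 CPM in wild-type. Stk17b, a kinase gene before Hecw2, had 44.5 and 31.0 CPM in cello, against 30.4 and 28.7 CPM in wild-type. Nyap2, after Dock10, had 1.88 and 2.04 CPM in cello, against 0.523 and 1.35 CPM in wild-type.

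At the edges of the choice, the farthest of the 9 genes lay well inside the limit of 20 Mb. The tested gene just inside it was Agap1 at 19.8 Mb, with 45.0 and 49.6 CPM in cello and 36.6 and 47.3 CPM in wild-type. Just outside was Ackr3 at 20.5 Mb, with 120.4 and 125.6 CPM in cello and 117.7 and 125.7 CPM in wild-type. Ordered by their limma p, Map2 came last of the 9. The non-members nearest in that order were Serpine2 and the galactosidase-like gene Glb1l (24.1 and 17.2 CPM in cello, 12.8 and 11.6 CPM in wild-type), while Myl1 ranked above several of the 9. Next among the others came Irs1, an insulin receptor substrate gene, with 25.4 and 25.5 CPM in cello, against 31.4 and 35.9 CPM in wild-type. Aamp followed, with 80.1 and 79.7 CPM in cello, against 95.8 and 97.1 CPM in wild-type.

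As sums, markers of nerve cells differed between genotypes in the same direction as the genes that were higher in cello. The 17 listed spiral ganglion neuron markers summed to 1275 and 1582 CPM in cello, against 589.9 and 1146 CPM in wild-type, and 8 of them were higher and 1 lower without overlap. The 12 Schwann cell and myelin markers summed to 4245 and 5207 CPM in cello, against 1282 and 3004 CPM in wild-type, with 9 higher and 1 lower. Over all genes tested, 45.6% had groups that did not overlap, 16.9% with cello higher and 28.7% with cello lower. The lists were not tested against these shares. Calb2, a calcium-binding protein gene of these neurons, had 183.4 and 220.0 CPM in cello, against 57.7 and 124.2 CPM in wild-type. Gata3, the neuron marker that was lower, had 100.8 and 135.1 CPM in cello, against 164.1 and 155.6 CPM in wild-type. The rest of the neuron list overlapped between genotypes. No marker of either list was at 0. Wild-type replicate 1 was the lowest library for these sums and also for Map2, Unc80, Kansl1l, Lancl1, Hecw2 and Dock10. For Kansl1l the wild-type libraries hardly differed, at 15.2 and 15.6 CPM. Between the cello libraries, both sums were higher in replicate 2, as were Map2, Lancl1 and Hecw2. Unc80, Kansl1l and Dock10 were instead lower in cello replicate 2 than in cello replicate 1. Without wild-type replicate 1 the log2 fold changes were 0.35 for Map2, 0.89 for Unc80, 0.53 for Kansl1l, 0.66 for Lancl1, 0.55 for Hecw2 and 0.67 for Dock10. The part of nerve content in these differences was not tested.

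Summed markers of hair cells and of epithelial and supporting cells differed between genotypes in the same direction as the genes that were lower. The 10 hair cell markers summed to 179.6 and 151.5 CPM in cello, against 303.4 and 299.4 CPM in wild-type, with 7 lower and 0 higher without overlap. The largest part of this sum in wild-type was Ocm, with 33.9 and 16.6 CPM in cello, against 116.0 and 107.5 CPM in wild-type. In cello the largest part was Otof, which overlapped, with 67.1 and 63.4 CPM in cello and 65.9 and 62.1 CPM in wild-type. The others of the 10 outside the 7 overlapped too. The 10 epithelial and supporting cell markers summed to 2588 and 2731 CPM in cello, against 3169 and 3366 CPM in wild-type, with 7 lower and 0 higher. Tecta of this list varied widely within cello, at 35.1 and 251.4 CPM, against 115.1 and 127.1 CPM in wild-type. Over all genes tested, 28.7% were lower in cello without overlap, and these lists were not tested against that share. No marker of these lists was at 0 either. Macrophage markers (173.1 and 167.8 CPM in cello, 179.9 and 169.9 CPM in wild-type) had 0 of 7 members without overlap. Bone markers summed to 2992 and 1114 CPM in cello and to 1426 and 1590 CPM in wild-type. Marrow markers summed to 82.6 and 7.84 CPM in cello and to 19.4 and 40.4 CPM in wild-type, and red cell markers to 1016 and 1200 CPM in cello and to 633.1 and 1404 CPM in wild-type. For Wdfy1, Ap1s3 and Smarcal1, the part of hair cell or epithelial content was not tested.

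**Figure D4:**
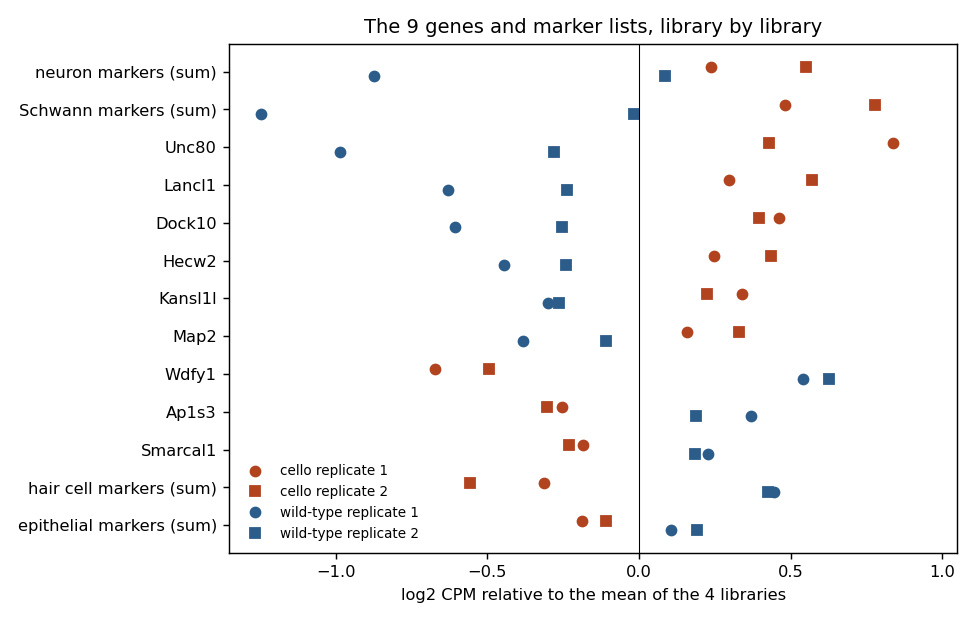
Log2 CPM of the 9 genes and summed CPM of 4 marker lists on the log2 scale, each relative to the mean of the 4 libraries, with one symbol per library. Neuron and Schwann cell markers are lowest in wild-type replicate 1, where Unc80, Lancl1 and Dock10 are also lowest. Between the cello libraries, Unc80 and Dock10 are lower in replicate 2, where neuron and Schwann cell markers are higher. Wdfy1, Ap1s3 and Smarcal1 lie on the same side as hair cell and epithelial markers.

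Outside the window, 5 genes had levels that followed those of Wdfy1 most closely over the 4 libraries, measured as the Euclidean distance of log2(CPM + 0.5) centred on each gene's mean. These were Rab3b (distance 0.08), Lmod3 (0.11), the prestin gene Slc26a5 (0.18), Acvr1c (0.27) and Ppp1r17 (0.27). Acvr1c reached 1 CPM only in wild-type, with 0.377 and 0.548 CPM in cello against 1.25 and 1.30 CPM in wild-type. At such levels its distance depends on the added 0.5. Rab3b, a vesicle GTPase gene, had 2.90 and 3.22 CPM in cello, against 6.84 and 7.19 CPM in wild-type. The measure rests on 4 libraries and is given as a description.

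Relatives and partners of the 9 genes were then measured, as lists taken from general knowledge. Of 90 listed names 86 were tested, and limma called 0 of them, with 18 at an unadjusted p under 0.05. EdgeR called 0 and DESeq2 called 2. Their groups did not overlap in 50 of 86 (58.1%), beside 45.6% of all genes. The median log2 fold change over all genes tested was -0.03.

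For Wdfy1, the list held the other WDFY genes and the Toll-like receptor adaptors. It had a median log2 fold change of -0.01, and 0 of 8 were called. Wdfy2 had 12.7 and 12.1 CPM in cello, against 9.01 and 10.2 CPM in wild-type. The receptor gene Tlr3 had 38.9 and 36.8 CPM in cello, against 47.0 and 46.2 CPM in wild-type (limma adjusted p = 0.423), and Ticam1, the gene of TRIF, stood at -0.20. For Ap1s3, the AP-1 adaptor list had a median of -0.08, with 0 of 13 called by limma. Ap1m2, the mu subunit of epithelial cells, had 35.5 and 39.3 CPM in cello, against 54.6 and 54.4 CPM in wild-type. Its log2 fold change of -0.54 (SE 0.09) was called by DESeq2 (adjusted p = 0.0074) and not by limma (adjusted p = 0.419). Ap1s2 stood at 0.25 and the GTPase gene Arf1, which recruits the adaptor, at -0.18.

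For Smarcal1, the fork remodelling list had a median of 0.06, and 0 of 9 were called, with Wrn at 0.28, Rpa1 at -0.17 and Atr at 0.16. For Kansl1l, the NSL complex list had a median of -0.02, and 0 of 12 were called, with Ogt at 0.23, Kat8 at -0.13 and Wdr5 at -0.12. The smallest limma adjusted p in the NSL list was 0.675. For Lancl1, the list of its family and of glutathione enzymes had a median of 0.04, and 0 of 10 were called, with Lancl3 at 0.88, Cbs at 0.34 and Gsta4 at -0.33.

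For Dock10, the other DOCK genes, with Cdc42 and Rac1, had a median of 0.03, and 0 of 12 were called. Dock3, a brain-enriched member, had 14.6 and 14.7 CPM in cello, against 5.77 and 9.66 CPM in wild-type, Dock11 stood at 0.50 and Dock9 at 0.26. For Unc80, the channel gene Nalcn had 81.1 and 73.8 CPM in cello, against 83.9 and 88.4 CPM in wild-type. Its partner gene Unc79 stood at 0.43 and Fam155a at 0.32, and limma called 0 of these 3. Unc80 thus differed by 1.22 where Nalcn differed by -0.15, and this contrast between genes was not tested.

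For Map2, other microtubule-associated protein genes had a median of -0.05, and 0 of 11 were called by limma. Map1a had 168.9 and 171.1 CPM in cello, against 45.5 and 112.3 CPM in wild-type. Map7d2, at 24.6 and 23.0 CPM in cello and 9.49 and 15.5 CPM in wild-type, was called by DESeq2 (adjusted p = 0.029) but not by limma (adjusted p = 0.419), and Mapt stood at 0.86. For Hecw2, the NEDD4 family had a median of -0.03, and 0 of 8 were called. Its closest relative Hecw1 had 11.1 and 14.3 CPM in cello, against 2.68 and 7.81 CPM in wild-type, Wwp2 stood at -0.30 and Wwp1 at 0.15.

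**Figure D5:**
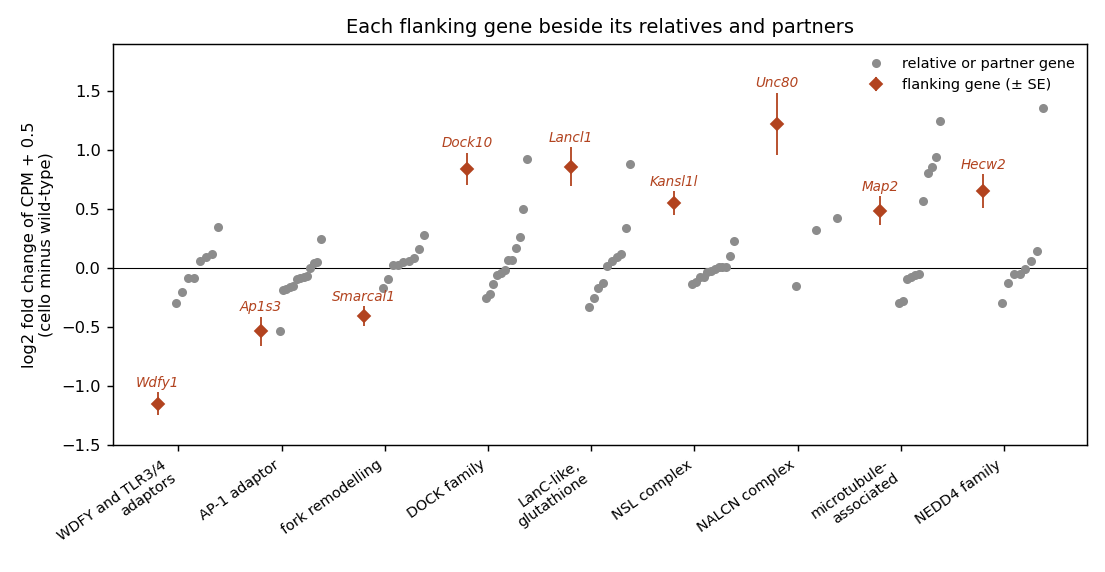
Log2 fold change (cello minus wild-type) of each flanking gene, with its SE, beside the genes of its list of relatives and partners, 86 in all. Wdfy1 at -1.15 lies below all 8 genes of its list, whereas Hecw1 at 1.36 and Map1a at 1.24 exceed Hecw2 and Map2.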

How the data were processed

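Libraries were made from cochlear RNA with a TruSeq kit, per the labels' protocols. TopHat and the GRCm38 build are named in the submitters' processing notes. The deposited unit is CPM, 1 file per library, which the authors scaled to every counted alignment. In each file 5 entries name no gene (27.2% to 30.0% of alignments), and they entered no test. How reads were counted, with which strand setting and annotation, is not given in the sources used here. The CPM steps gave whole reads for 100% of values (tolerance 0.001 of a read). GENCODE M21 supplied names and positions for 36588 of 37239 identifiers.

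The 14721 genes that reached 1 CPM in 2 or more libraries were fitted by genotype in limma 3.58.1 (R 4.3.3) on log2(CPM + 0.5). The fit used a trended variance, two-sided tests and Benjamini-Hochberg adjustment over all genes, with calls at 0.05. A fold change is cello minus wild-type and understates the change of low genes. Errors are the SD of 2 libraries or limma's SE. Recovered reads were also fitted in edgeR 4.0.16 and DESeq2 1.42.0. Floors cover counting error only.

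The 9 genes and all lists were chosen with earlier results of these data known. The rule for named genes took the 9 genes, Ikzf2, their tested protein-coding neighbours, the 5 other window genes with the smallest p, up to 3 genes per partner list with the largest change, the 5 genes most like Wdfy1, and up to 3 abundant genes per marker list. Creb1, Idh1 and the loci inside Kansl1l and Unc80 were named after their values were seen.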

Additional observations from a re-analysis of the deposited data

How the results depend on the processing

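The direction of the 9 genes was the same under all 15 other settings (pseudocounts, filters, rescalings, limma without the trend, edgeR, DESeq2, the replicate block and leaving out each library), with 0 of 135 values reversed, and 1, that of Smarcal1 in edgeR (-0.37), moved by more than 1 SD. Over all genes, the count of calls was 195 in DESeq2 and 0 to 90 when a library was left out, with the 90 calls without wild-type replicate 2. Calls among partner genes were 2 in DESeq2 and 0 to 1 when a library was left out, with 1 call without wild-type replicate 2. Where a library is left out, the lone sample is assumed to vary like the other group. The count of window genes whose groups do not overlap, 109, was 185 of 484 with no filter (38.2%), 61 of 108 within 10 Mb (56.5%), and 155 to 173 with a library left out, where fewer values make overlap rarer. In the 5 Mb before Ikzf2 the count of 17 of 18 was 29 of 45 with no filter, a lower share. With a library left out it was 17 to 18 of 18, where overlap is again rarer for every gene. These settings for the 5 Mb were added after the data were seen. With the replicate block, limma called 0 genes and 9 of 9 genes kept their direction. Only 2 pairs exist and the labels do not say that numbers mark a litter, so samples share only a number, and the deviations of same-numbered libraries correlated at 0.13. At 352 to 6969 reads per gene and library, precision is limited by having 2 libraries per genotype.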
